A study of Homo sapiens with 3 samples.

Results

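ALDH1A1-high cells are the cells of 3 lung carcinoma cultures that carried at least 3 UMIs (unique molecular identifiers, 1 per captured transcript) of ALDH1A1 and at least 5000 UMIs in total. They numbered 346 of 3850 cells of that depth in H460, 816 of 3880 in mdR-H460 and 147 of 4521 in ldR-H460, or 1309 of 14638 cells in all, the cell number the series states. Each class was set against the cells of the same culture with at least 5000 UMIs and 0 ALDH1A1 UMIs, called ALDH1A1-zero here. These numbered 2115, 1592 and 3556 in the same order. Cells with 1 or 2 ALDH1A1 UMIs (1389, 1472 and 818) and cells under 5000 UMIs (681, 1271 and 435) were in neither class. The parental H460 line comes from a human large-cell lung carcinoma. The labels name mdR-H460 and ldR-H460 as mid-term and long-term dR-H460 lines with H460 as their parent, and the series title places them in a reprogrammed cancer cell model. The protocol in the labels describes irradiated human fibroblasts as a feeder layer and as the source of conditioned medium, but the text given here is cut off before it reaches the derivatives, all 3 samples carry the same text, and the codes in the sample descriptions are not explained. Each culture was 1 library made with 3' droplet chemistry, so no difference has a replicate check and no test was possible. Ranges in parentheses are 95% counting intervals, which cover counting error only. The chosen cells were defined by the level of ALDH1A1 itself, so that level is a description.

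ALDH1A1 is a cytosolic aldehyde dehydrogenase that oxidises retinaldehyde to retinoic acid and clears aldehydes formed in lipid peroxidation. Its activity is widely used to sort stem-like and drug-tolerant cells from carcinomas, lung carcinoma included. Other genes treated below belong to the hypoxia response, in which the transcription factor HIF1 raises glycolytic enzymes and genes of mitophagy when oxygen is low, and to the NRF2 response, which raises detoxifying enzymes under oxidative or electrophilic stress.

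ALDH1A1 stood at 209, 249.5 and 289.8 CPM (UMIs of a gene per 1000000 UMIs summed over the cells of a class) in ALDH1A1-high cells from H460, mdR-H460 and ldR-H460, from 1424, 4163 and 622 UMIs, and at 0 in the ALDH1A1-zero cells by the rule. Over whole libraries it stood at 50.1, 96.8 and 27.3 CPM. The ALDH1A1-high share of cells with at least 5000 UMIs was 8.99% (8.10 to 9.93) in H460, 21.0% (19.8 to 22.3) in mdR-H460 and 3.25% (2.75 to 3.81) in ldR-H460. The class was thus most frequent in the mid-term culture and least frequent in the long-term culture. The cells just inside the cut, with exactly 3 ALDH1A1 UMIs, numbered 175, 297 and 74 and stood at 152, 166 and 229 CPM of ALDH1A1; those just outside, with exactly 2, numbered 419, 506 and 184 and stood at 107, 112 and 144 CPM. The highest single cell had 17, 25 and 14 ALDH1A1 UMIs.

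The class depends on how deeply a cell was read. Median UMIs per cell were 19069, 20203.5 and 14700 in ALDH1A1-high cells, against 14942, 12973.5 and 12651.5 in ALDH1A1-zero cells. The ALDH1A1-high share was 3.79%, 8.47% and 12.96% in H460 cells of 5000 up to 10000, 10000 up to 20000 and 20000 or more UMIs. In the same bands it was 8.07%, 19.5% and 33.9% in mdR-H460, and 2.17%, 3.51% and 4.41% in ldR-H460. The order of the cultures was the same in each band of depth. For this reason every ratio below was also computed with the ALDH1A1-zero cells weighted to the depth of the ALDH1A1-high cells, and such a value is called depth-weighted. After thinning of every cell to 5000 UMIs, 1.27%, 3.56% and 0.686% of cells kept 3 or more ALDH1A1 UMIs.

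**Figure D1:**
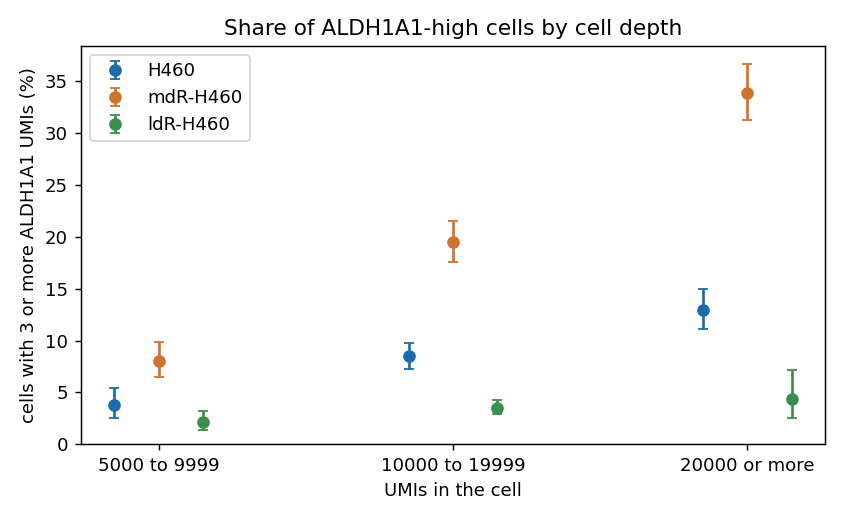
Share of cells with 3 or more ALDH1A1 UMIs (%, vertical axis) in 3 bands of UMIs per cell (horizontal axis); points are shares within a culture and bars their exact 95% binomial intervals. The mdR-H460 share reached 33.9% in cells of 20000 or more UMIs, against 12.96% for H460 and 4.41% for ldR-H460 in the same band.

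The 3 libraries held 60468481 to 66624830 UMIs, and 24 to 36 cell barcodes were shared between any pair of them and none among all 3. Mitochondrially encoded transcripts made up 4.67%, 5.06% and 6.42% of UMIs in ALDH1A1-high cells, against 4.83%, 5.32% and 6.82% in ALDH1A1-zero cells. The epithelial keratin gene KRT18 had 1017, 1724 and 1218 CPM in ALDH1A1-high cells, against 1113, 1794 and 1214 CPM in ALDH1A1-zero cells, while the adhesion gene EPCAM had at most 8 UMIs in ALDH1A1-high cells and at most 10 in ALDH1A1-zero cells of a culture. Of 8 fibroblast markers, listed because of the feeder layer, none reached 10 CPM in either class, and COL1A2 had 0 UMIs in the ALDH1A1-high cells of each culture and 1 UMI in all ALDH1A1-zero cells. The summed level of the 8 was 15.7, 3.30 and 5.12 CPM in ALDH1A1-high cells, against 8.77, 2.75 and 4.32 CPM in ALDH1A1-zero cells, and in H460 54 and 13 UMIs of LUM and DCN in the ALDH1A1-high cells stood against 111 and 21. The part of such cells in the H460 ratios was not tested. Markers of immune, endothelial and airway cells also stayed under 10 CPM, and the airway markers had no UMI in either class.

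To find which differences recur, CPM ratios of ALDH1A1-high over ALDH1A1-zero cells were taken for genes that reached 10 CPM and 30 UMIs in the higher class. At 1.5-fold, 36 genes were higher and 41 lower in ALDH1A1-high cells of H460 (0.56% and 0.638% of 6428 genes), 18 higher and 80 lower in mdR-H460 (0.307% and 1.36% of 5862), and 113 higher and 199 lower in ldR-H460 (1.98% and 3.5% of 5693). No gene was 1.5-fold apart in the same direction in all 3 cultures, of 5232 measured in each. A gene was also counted at 25%, when the level of 1 class was at least 25% above that of the other. At 25%, 211 higher and 340 lower genes (3.28% and 5.29%) were found in H460, 205 and 357 (3.5% and 6.09%) in mdR-H460, and 550 and 900 (9.66% and 15.8%) in ldR-H460. In all 3 cultures, at this lower limit, 12 genes were higher and 10 lower (0.229% and 0.191%). The ALDH1A1-high and ALDH1A1-zero cells were thus close over most of the transcriptome, with 91.4%, 90.4% and 74.5% of genes within 25%. The ldR-H460 class held the fewest UMIs, 2146382 against 6799334 in H460 and 16684473 in mdR-H460. The ALDH1A1-zero cells of ldR-H460 held 46304716. The limit of 30 UMIs in the higher class was thus harder to reach for genes higher in ldR-H460 than for genes lower there. Counts of higher and lower genes in ldR-H460 therefore did not pass an equal filter. Ratios from fewer UMIs have wider counting intervals, so the ldR-H460 counts and its 74.5% are not directly comparable with those of the other cultures. The part of counting error in them was not tested. With depth-weighted ALDH1A1-zero cells, 68 genes were 1.5-fold higher and 44 lower in H460 (1.06% and 0.687%), 44 and 23 in mdR-H460 (0.757% and 0.396%), and 148 and 229 in ldR-H460 (2.6% and 4.03%). In the 3 cultures together 3 genes were then 1.5-fold higher and none lower (0.0575% and 0% of 5217). At 25% with depth weighting, 345 and 385 genes were higher and lower in H460 (5.39% and 6.01%), 302 and 259 in mdR-H460 (5.2% and 4.46%) and 590 and 984 in ldR-H460 (10.4% and 17.3%). In all 3 cultures 30 were higher and 17 lower (0.575% and 0.326%), among them 11 of the 12 and 5 of the 10. Of these, 19 of the 30 and 3 of the 17 had plain intervals clear of 1 in every culture. No interval was computed for depth-weighted ratios.

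BNIP3L, SPAG4, PGK1 and FAM162A were among the 12 recurring higher genes. BNIP3L, a receptor that marks mitochondria for mitophagy (chromosome 8, 26382898 to 26505636 on GRCh38), had 33.8, 32.5 and 31.7 CPM in ALDH1A1-high cells from H460, mdR-H460 and ldR-H460, against 17.5, 23.8 and 15.8 CPM in the ALDH1A1-zero cells. Its ratios were 1.93 (1.65 to 2.25), 1.37 (1.21 to 1.54) and 2.01 (1.54 to 2.58), and the depth-weighted ratios were 2.12, 2.07 and 2.25. Matching depth moved mdR-H460 most for BNIP3L, and brought the 3 ratios closer together. SPAG4, a nuclear envelope protein gene (chromosome 20, 35615892 to 35621049), had 22.1, 30.7 and 18.2 CPM in ALDH1A1-high cells, against 14.1, 24.3 and 7.34 CPM in ALDH1A1-zero cells, with ratios of 1.57 (1.29 to 1.89), 1.26 (1.12 to 1.42) and 2.47 (1.73 to 3.45) and depth-weighted ratios of 1.63, 2.04 and 2.75. STC1, which encodes the secreted hormone stanniocalcin 1, had 20.7, 16.1 and 14.0 CPM in ALDH1A1-high cells, against 16.9, 16.1 and 9.14 CPM in ALDH1A1-zero cells, and its depth-weighted ratios were 1.52, 1.52 and 1.78. BNIP3L, SPAG4 and STC1 were the 3 genes at 1.5-fold in all cultures with depth-weighted cells, while the plain STC1 ratios were 1.23 (1.02 to 1.48), 1.00 (0.855 to 1.18) and 1.53 (1.02 to 2.22).

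PGK1, the glycolytic phosphoglycerate kinase (chromosome X, 77910739 to 78129296), had 574, 694 and 531 CPM in ALDH1A1-high cells from H460, mdR-H460 and ldR-H460, against 419, 490.1 and 335 CPM in the ALDH1A1-zero cells. The ratios were 1.37 (1.32 to 1.42), 1.42 (1.38 to 1.45) and 1.58 (1.49 to 1.68), and weighting by depth left them at 1.37, 1.46 and 1.60. With 1139 UMIs or more in each ALDH1A1-high class it had the most UMIs of the 12 recurring higher genes. FAM162A, a mitochondrial protein gene known to be induced by hypoxia (chromosome 3, 122384176 to 122412334), had 115, 156 and 151 CPM in ALDH1A1-high cells, against 86.0, 115 and 109 CPM in ALDH1A1-zero cells, with ratios of 1.33 (1.23 to 1.44), 1.36 (1.28 to 1.43) and 1.39 (1.24 to 1.55). MXI1, an antagonist of MYC (chromosome 10, 110207605 to 110287365), had 14.9, 19.8 and 23.3 CPM in ALDH1A1-high cells, against 10.3, 15.4 and 18.4 CPM in ALDH1A1-zero cells, with ratios of 1.44 (1.14 to 1.80), 1.29 (1.11 to 1.499) and 1.27 (0.934 to 1.69). Its depth-weighted ratios were 1.34, 1.24 and 1.28, so that of the 12 genes MXI1 alone no longer reached 25% in every culture, by its mdR-H460 value. PLIN2, the lipid droplet coat protein, had 17.4, 40.7 and 31.2 CPM in ALDH1A1-high cells, against 13.3, 28.7 and 13.1 CPM in ALDH1A1-zero cells, and its ratios were 1.30 (1.05 to 1.60), 1.42 (1.27 to 1.58) and 2.38 (1.82 to 3.07). The PLIN2 difference was largest in the long-term culture.

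Promoter windows, 250 bases before to 50 after the start, were available for 8 of the 12 higher and 6 of the 10 lower genes in RefSeq on GRCh38.p14. The core letters of the hypoxia response element, ACGTG or GCGTG on either strand, occurred in 5 of the 8 and in 3 of the 6 windows, and in 48.4% of all 35116 windows of the same length. With so few windows, nothing is read from either share. The windows of PGK1 and FAM162A, recurring glycolytic and mitochondrial genes, and of ALDH1A1, which chose the cells, are shown 5' to 3' to let these letters be read in place, with every match in capitals.
PGK1, chrX:78103998-78104297, plus strand: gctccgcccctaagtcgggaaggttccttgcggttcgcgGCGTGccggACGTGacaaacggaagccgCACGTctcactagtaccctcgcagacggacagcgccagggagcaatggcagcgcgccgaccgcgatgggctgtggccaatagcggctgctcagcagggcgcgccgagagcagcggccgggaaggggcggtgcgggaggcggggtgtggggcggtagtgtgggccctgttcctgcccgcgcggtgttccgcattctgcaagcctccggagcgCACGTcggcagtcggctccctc
FAM162A, chr3:122383932-122384231, plus strand: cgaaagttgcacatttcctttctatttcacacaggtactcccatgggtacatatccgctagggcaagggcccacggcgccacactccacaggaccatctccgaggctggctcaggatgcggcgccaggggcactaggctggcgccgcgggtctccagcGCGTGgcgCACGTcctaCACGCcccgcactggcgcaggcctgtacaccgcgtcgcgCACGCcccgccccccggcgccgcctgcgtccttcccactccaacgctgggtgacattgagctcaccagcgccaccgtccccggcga
ALDH1A1, chr9:72953004-72953303, minus strand: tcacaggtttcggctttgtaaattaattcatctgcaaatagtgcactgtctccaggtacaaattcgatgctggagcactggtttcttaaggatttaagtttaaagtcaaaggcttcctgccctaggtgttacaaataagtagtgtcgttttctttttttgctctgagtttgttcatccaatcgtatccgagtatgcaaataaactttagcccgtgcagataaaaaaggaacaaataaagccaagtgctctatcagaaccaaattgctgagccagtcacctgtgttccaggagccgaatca

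The PGK1 and FAM162A windows held 4 matches each, and the ALDH1A1 window held 0. A match is a description of letters and the windows may not be the starts used in these cells.

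**Figure D2:**
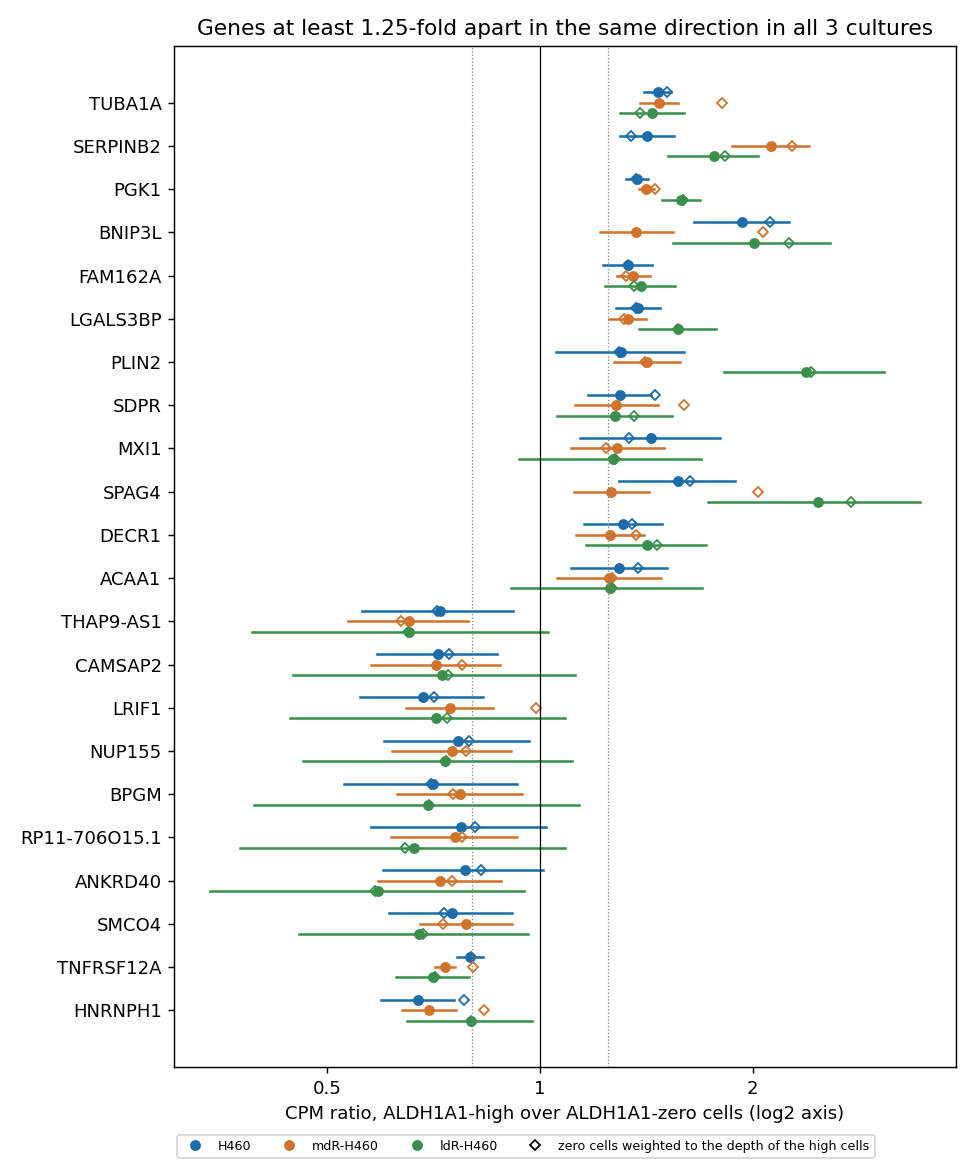
CPM ratio of ALDH1A1-high over ALDH1A1-zero cells (log2 axis) for the 12 genes higher and the 10 lower at 25% in all 3 cultures. Filled points are plain ratios with 95% counting intervals, open diamonds depth-weighted ratios and dotted lines the 25% limits; 10 of the 12 higher genes and 3 of the 10 lower genes had intervals clear of 1 in every culture.

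The other recurring higher genes have different known roles. TUBA1A, an alpha-tubulin, had 388, 126 and 181 CPM in ALDH1A1-high cells, against 264, 85.3 and 126 CPM in ALDH1A1-zero cells, with ratios of 1.47 (1.405 to 1.53), 1.47 (1.38 to 1.57) and 1.44 (1.30 to 1.60); reads of alpha-tubulin copies may have been split between them, so the count is uncertain. SERPINB2, the plasminogen activator inhibitor 2, had 94.3, 37.5 and 92.7 CPM in ALDH1A1-high cells, against 66.5, 17.7 and 52.6 CPM in ALDH1A1-zero cells, with ratios of 1.42 (1.30 to 1.55), 2.12 (1.87 to 2.41) and 1.76 (1.52 to 2.04). LGALS3BP, a secreted galectin-binding protein, had 144, 126 and 127 CPM in ALDH1A1-high cells, against 105, 94.6 and 81.1 CPM in ALDH1A1-zero cells, with ratios of 1.38 (1.28 to 1.48), 1.33 (1.253 to 1.41) and 1.57 (1.38 to 1.77). The ordering of cultures by SERPINB2 level differed from that by ratio, since mdR-H460 had the lowest level and the largest ratio. SDPR, which encodes the caveolar protein cavin 2, had ratios of 1.30, 1.28 and 1.28. DECR1 and ACAA1, enzymes of fatty acid oxidation in mitochondria and peroxisomes, had ratios of 1.31, 1.26 and 1.42 and of 1.30, 1.253 and 1.26. Their depth-weighted ratios were 1.35, 1.37 and 1.47 and 1.38, 1.26 and 1.26, and the ldR-H460 interval of ACAA1 included 1.

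Cells were then divided by their ALDH1A1 UMIs into 0, 1 or 2, 3 or 4, and 5 or more. The genes followed here were chosen as higher at 3 or more ALDH1A1 UMIs than at 0 in the same cells. A rise from 0 to the upper groups is thus largely set by that choice and is no separate support. Levels in these groups were not weighted by depth, although ALDH1A1-high cells were read more deeply. PGK1 stood at 419, 458, 557 and 619.7 CPM in these groups of H460, at 490.1, 534, 625 and 778 CPM in mdR-H460 and at 335, 358, 482 and 631 CPM in ldR-H460. SERPINB2 stood at 66.5, 81.9, 85.9 and 116 CPM in H460, 17.7, 22.9, 30.6 and 46.0 CPM in mdR-H460 and 52.6, 64.0, 84.3 and 110.1 CPM in ldR-H460. Both were higher at each further step of ALDH1A1 in each culture. BNIP3L differed in shape, with 17.5, 18.7, 31.7 and 39.5 CPM in H460, 23.8, 23.7, 30.4 and 35.2 CPM in mdR-H460 and 15.8, 16.3, 29.7 and 35.8 CPM in ldR-H460. Its level in cells with 1 or 2 ALDH1A1 UMIs was close to that in ALDH1A1-zero cells, and the levels at 3 or more lay above both. Among ALDH1A1-zero cells BNIP3L fell from the shallowest to the deepest band. It fell from 23.8 to 12.9 CPM in H460, 50.6 to 10.5 CPM in mdR-H460 and 27.9 to 9.75 CPM in ldR-H460. Median UMIs were 14942, 12973.5 and 12651.5 in ALDH1A1-zero cells, against 17711, 15677 and 13265 in cells with 1 or 2 ALDH1A1 UMIs. The part of depth in the BNIP3L shape was not tested. TUBA1A stood at 264, 308, 364 and 451 CPM in H460 and 126, 125, 153 and 240.3 CPM in ldR-H460. The group with 5 or more ALDH1A1 UMIs held 94, 330 and 44 cells.

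**Figure D3:**
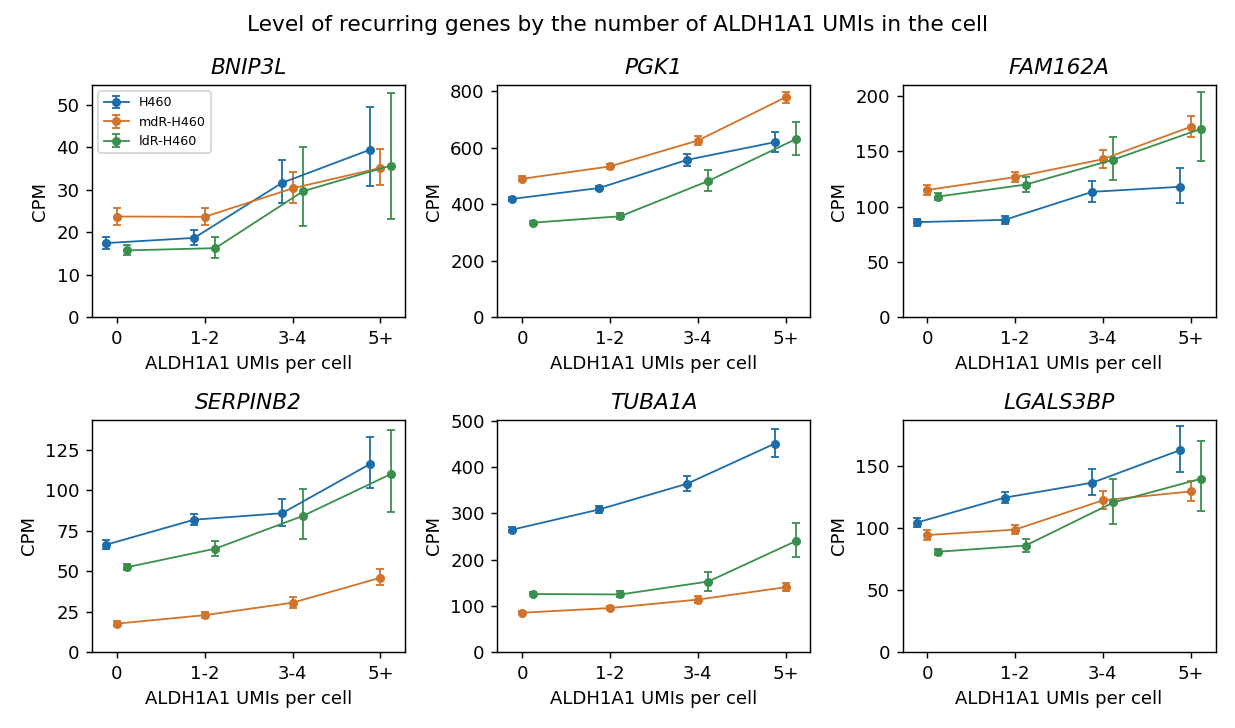
Level (CPM, vertical axes from 0) of 6 recurring genes in cells grouped by ALDH1A1 UMIs (horizontal axis) in the 3 cultures, with exact 95% Poisson intervals as bars. In each of the 3 cultures all 6 genes had their highest level in the cells with 5 or more ALDH1A1 UMIs. The 6 genes were chosen as higher at 3 or more than at 0 ALDH1A1 UMIs in the same cells, and the levels are not depth-weighted.

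Ratios were also computed within bands of depth. In H460 cells of the same 3 bands the PGK1 ratio was 2.34, 1.42 and 1.28, in mdR-H460 1.64, 1.62 and 1.38 and in ldR-H460 1.59, 1.53 and 1.88. The TUBA1A ratio lay between 1.39 and 1.88 over the same 9 combinations of culture and band, and the FAM162A ratio between 1.23 and 2.15. ACAA1, MXI1, SDPR and SERPINB2 each had a ratio under 1 in at least 1 combination, and SERPINB2 stood at 0.808, 1.87 and 2.67 in the 3 bands of mdR-H460. STC1 had 3 ratios under 1: 0.988 (0.705 to 1.36) in the middle band of H460, 0.921 (0.554 to 1.46) in the shallowest of mdR-H460 and 0.923 (0.471 to 1.64) in the middle band of ldR-H460. In ldR-H460 its ratio was 4.51 (2.45 to 7.73) in the shallowest band, from 15 UMIs in ALDH1A1-high cells. The shallowest band held 28, 83 and 24 ALDH1A1-high cells.

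The genes lower in ALDH1A1-high cells of all 3 cultures included a receptor, a splicing factor and several transcripts of low level. TNFRSF12A, a receptor for the cytokine TWEAK, was the most abundant, with 368, 348 and 136 CPM in ALDH1A1-high cells from H460, mdR-H460 and ldR-H460, against 463, 474 and 192 CPM in the ALDH1A1-zero cells. Its ratios were 0.796 (0.762 to 0.830), 0.733 (0.710 to 0.757) and 0.706 (0.626 to 0.793), and the depth-weighted ratios were 0.799, 0.805 and 0.710, so that the mdR-H460 difference no longer reached 25%. HNRNPH1, a splicing factor, had 46.2, 44.9 and 47.1 CPM in ALDH1A1-high cells, against 68.7, 64.4 and 59.0 CPM in ALDH1A1-zero cells, with ratios of 0.672 (0.595 to 0.756), 0.697 (0.637 to 0.761) and 0.798 (0.648 to 0.974) and depth-weighted ratios of 0.782, 0.833 and 0.798, the mdR-H460 value again short of 25%. SMCO4 had 17.2, 16.7 and 14.4 CPM in ALDH1A1-high cells, against 22.9, 21.2 and 21.4 CPM in ALDH1A1-zero cells, with ratios of 0.750 (0.612 to 0.912), 0.785 (0.675 to 0.911) and 0.673 (0.455 to 0.962). TNFRSF12A, HNRNPH1 and SMCO4 were the 3 genes of the 10 whose intervals stayed below 1 in every culture. THAP9-AS1, an antisense transcript for which the use of strand in counting is not given, had ratios of 0.721, 0.652 and 0.653. CAMSAP2, which binds microtubule ends, had ratios of 0.717, 0.712 and 0.726, NUP155, a nuclear pore protein, of 0.766, 0.751 and 0.733, and BPGM, which makes a phosphoglycerate that lowers the oxygen affinity of haemoglobin, of 0.705, 0.770 and 0.693. LRIF1, a nuclear receptor-interacting factor, had ratios of 0.682, 0.745 and 0.712, and its mdR-H460 ratio was 0.988 after depth weighting. ANKRD40 and RP11-706O15.1 completed the list, at 0.782, 0.722 and 0.589 and 0.772, 0.757 and 0.663, from 17 and 16 UMIs in the ALDH1A1-high cells of ldR-H460. Their depth-weighted ratios were 0.825, 0.750 and 0.583 and 0.809, 0.776 and 0.644, with the H460 values short of 25%. BPGM, CAMSAP2, NUP155, SMCO4 and THAP9-AS1 were the 5 of the 10 that were also lower at 25% in all cultures after depth weighting.

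Glycolysis and hypoxia genes, a list of 24, lay above 1 together. Of the measured members, 18 of 19, 18 of 19 and 15 of 17 of H460, then mdR-H460 and ldR-H460, had a ratio above 1, and median log2 ratios were 0.24, 0.25 and 0.25, beside -0.02, -0.01 and -0.05 over all measured genes. Depth-weighted medians were 0.25, 0.29 and 0.23. The measured members included ENO2 in H460 and ALDOC in mdR-H460, which reached 10 CPM only in ALDH1A1-high cells. Such members lay above 1 by the filter. At 25%, 3, 4 and 3 members were higher and 0, 1 and 1 lower, of 19, 19 and 17 measured; over all measured genes the shares were 3.28%, 3.5% and 9.66% higher and 5.29%, 6.09% and 15.8% lower. The abundant enzymes had small ratios: GAPDH 1.17, 1.12 and 1.18, LDHA 1.20, 1.19 and 1.23, ENO1 1.18, 1.18 and 1.24, PKM 1.21, 1.24 and 1.24 and TPI1 1.17, 1.19 and 1.20. GAPDH itself had 7221, 6301 and 6437 CPM in ALDH1A1-high cells, against 6159, 5650.4 and 5467 CPM in ALDH1A1-zero cells, and processed copies of GAPDH and PGK1 elsewhere in the genome could have shared reads. BNIP3, the mitophagy receptor related to BNIP3L, had 442, 536 and 410.5 CPM in ALDH1A1-high cells, against 357, 436 and 320.2 CPM in ALDH1A1-zero cells, with ratios of 1.24 (1.19 to 1.29), 1.23 (1.20 to 1.27) and 1.28 (1.20 to 1.37).

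Larger ratios belonged to members of low level. ALDOC, aldolase C, had 13.2, 11.2 and 10.7 CPM in ALDH1A1-high cells, against 10.4, 7.66 and 4.45 CPM in ALDH1A1-zero cells, with ratios of 1.28 (1.00 to 1.62), 1.46 (1.19 to 1.81) and 2.41 (1.49 to 3.71). ENO2, enolase 2, had 14.7, 6.53 and 4.19 CPM in ALDH1A1-high cells, against 8.26, 3.74 and 2.53 CPM in ALDH1A1-zero cells, with ratios of 1.78 (1.402 to 2.25), 1.74 (1.30 to 2.34) and 1.66 (0.740 to 3.26), from 9 UMIs in the ALDH1A1-high cells of ldR-H460. CA9, carbonic anhydrase 9 and a hypoxia marker, had 8.24 CPM in ALDH1A1-high and 2.43 CPM in ALDH1A1-zero cells in H460, a ratio of 3.39 (2.36 to 4.82), and 3.84 CPM in ALDH1A1-high and 1.55 CPM in ALDH1A1-zero cells in mdR-H460, a ratio of 2.48 (1.62 to 3.83); in ldR-H460 it had 1 UMI in ALDH1A1-high cells and 8 in ALDH1A1-zero cells. HK1, hexokinase 1, did not share the direction, with ratios of 0.974 (0.755 to 1.24), 1.32 (1.11 to 1.56) and 0.705 (0.476 to 1.01). GBE1, the glycogen branching enzyme, and WSB1, a ubiquitin ligase subunit, are not on the list and were chosen after their values were seen. Their depth-weighted ratios were 1.38, 1.34 and 1.46 and 1.33, 1.44 and 1.32. In the shallowest depth band the GBE1 ratio was 0.799 (0.370 to 1.54) in mdR-H460 and 0.849 (0.173 to 2.53) in ldR-H460. The GBE1 ratio was above 1 in the other bands, and the WSB1 ratio in every band. NDUFA4L2, a HIF1 target described below, had a ratio under 1 in H460 and above 1 in mdR-H460 and ldR-H460.

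**Figure D4:**
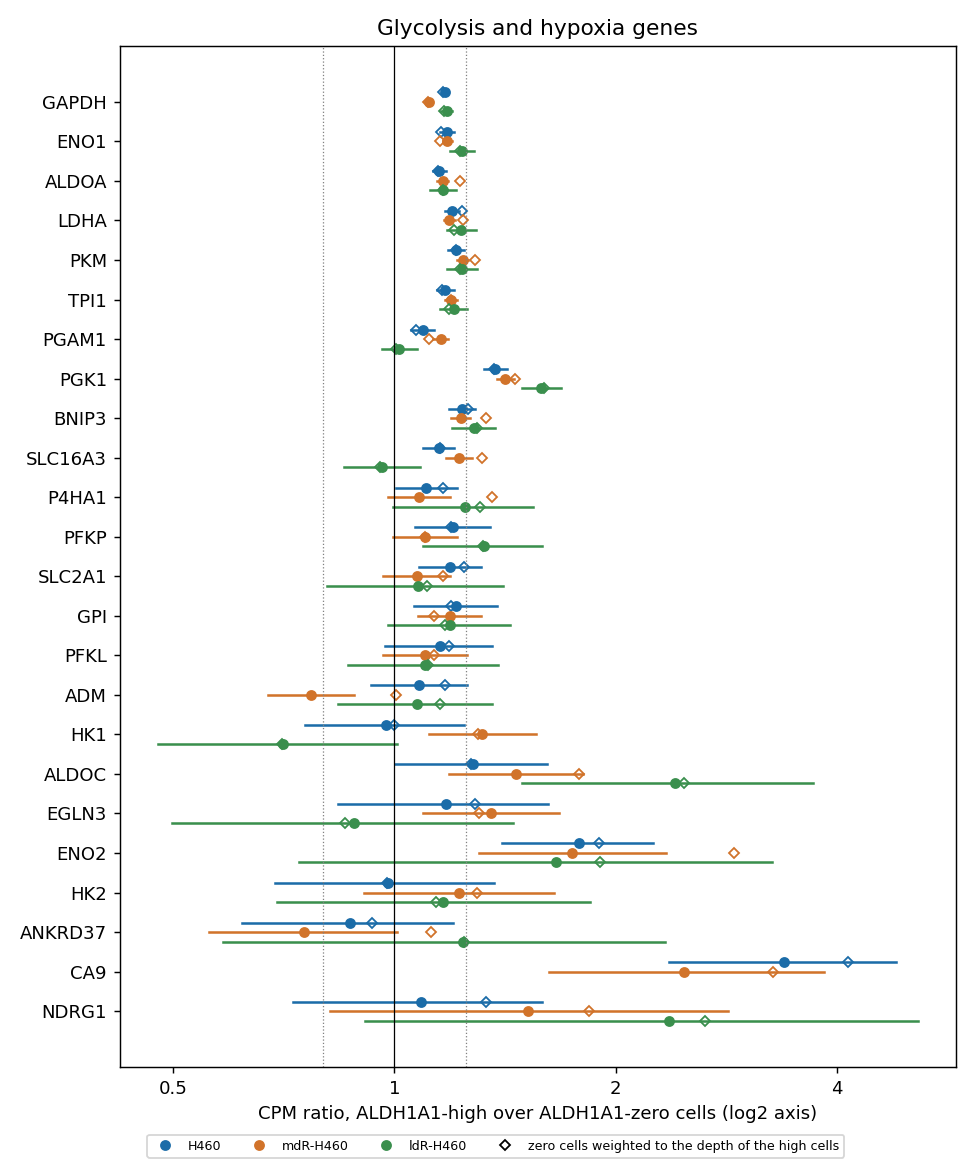
CPM ratio of ALDH1A1-high over ALDH1A1-zero cells (log2 axis) for the glycolysis and hypoxia list, ordered by UMIs in ALDH1A1-high cells, with 95% counting intervals; open diamonds are depth-weighted ratios, and pairs with fewer than 30 UMIs are not drawn. Of the measured members, 18 of 19, 18 of 19 and 15 of 17 lay above 1, from H460 to ldR-H460. Members that reached 10 CPM only in ALDH1A1-high cells lay above 1 by the filter.

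Among the other aldehyde dehydrogenases, 6 of 7, 7 of 8 and 5 of 7 measured members lay above 1. Their medians were 0.15, 0.16 and 0.22, beside -0.02, -0.01 and -0.05 over all measured genes. At 25%, 0, 2 and 2 members were higher and 0, 0 and 1 lower. Over all measured genes the shares were 3.28%, 3.5% and 9.66% higher and 5.29%, 6.09% and 15.8% lower. ALDH3A1, which oxidises aromatic and lipid aldehydes, was the most abundant, with 191, 193 and 527 CPM in ALDH1A1-high cells, against 156, 177 and 329.5 CPM in ALDH1A1-zero cells, and its ratios were 1.23 (1.15 to 1.30), 1.09 (1.04 to 1.14) and 1.60 (1.504 to 1.70). ALDH7A1, of lysine breakdown, had 15.0, 15.0 and 31.7 CPM in ALDH1A1-high cells, against 12.6, 11.8 and 16.6 CPM in ALDH1A1-zero cells, with ratios of 1.19 (0.953 to 1.49), 1.27 (1.06 to 1.51) and 1.91 (1.47 to 2.45). ALDH3A2, the fatty aldehyde dehydrogenase, had ratios of 1.11, 1.11 and 1.09, and ALDH1B1, a mitochondrial member, of 1.00, 0.911 and 0.700 with H460 just under the 10 CPM limit. The close relative ALDH1A3 had 2, 3 and 1 UMIs in ALDH1A1-high cells and 7, 9 and 10 in ALDH1A1-zero cells, and ALDH1A2 had none in ALDH1A1-high cells. A difference in either was not detectable at this depth.

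Genes of retinoid metabolism and response had medians of 0.20, 0.07 and 0.16 over 6, 7 and 7 measured members of 26. In ldR-H460 these members included STRA6, which reached 10 CPM only in ALDH1A1-high cells and so lay above 1 by the filter. ADH5, an alcohol dehydrogenase, had 70.4, 66.5 and 62.9 CPM in ALDH1A1-high cells, against 54.1, 55.9 and 46.9 CPM in ALDH1A1-zero cells, with ratios of 1.30 (1.18 to 1.44), 1.19 (1.10 to 1.29) and 1.34 (1.12 to 1.59). STRA6, the membrane receptor for retinol uptake, had 5.63 CPM in ALDH1A1-high and 2.93 CPM in ALDH1A1-zero cells in mdR-H460, a ratio of 1.93 (1.39 to 2.67), and 18.2 CPM in ALDH1A1-high and 8.44 CPM in ALDH1A1-zero cells in ldR-H460, a ratio of 2.15 (1.51 to 2.99), while H460 had 1 and 9 UMIs. RDH10, which oxidises retinol to retinaldehyde, had ratios of 0.582 (0.291 to 1.06), 0.742 (0.528 to 1.03) and 1.91 (1.36 to 2.61), and was thus higher in ldR-H460 and on the other side of 1 in H460 and mdR-H460. RXRA, a partner of the retinoic acid receptors, had ratios of 1.19, 1.09 and 1.02. The retinoic acid-degrading enzyme CYP26A1, a known target of retinoic acid, had 2, 5 and 3 UMIs in ALDH1A1-high cells and 6, 4 and 9 in ALDH1A1-zero cells.

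NRF2 targets, 33 measured of 35, had medians of 0.04, 0.15 and 0.16, with 21 of 33, 25 of 33 and 27 of 33 above 1 and 0, 5 and 10 higher at 25% against 0, 0 and 2 lower, beside 3.28%, 3.5% and 9.66% of all measured genes higher and 5.29%, 6.09% and 15.8% lower. AKR1C3, an aldo-keto reductase, had 281, 332 and 511 CPM in ALDH1A1-high cells, against 228, 232 and 303 CPM in ALDH1A1-zero cells, with ratios of 1.23 (1.17 to 1.30), 1.43 (1.37 to 1.48) and 1.69 (1.58 to 1.79). AKR1C1, whose near-identical copy AKR1C2 makes its count uncertain, had ratios of 1.17, 1.26 and 1.34. PRDX1, a peroxiredoxin, and PIR, an iron-binding nuclear protein, had ratios of 1.19, 1.20 and 1.27 and 1.19, 1.19 and 1.43. AKR1C3 was the largest of these in mdR-H460 and ldR-H460. GSTM3, a glutathione transferase, had 219, 254 and 254 CPM in ALDH1A1-high cells, against 204, 186 and 169 CPM in ALDH1A1-zero cells, with ratios of 1.07 (1.01 to 1.13), 1.36 (1.30 to 1.42) and 1.501 (1.37 to 1.64), and the abundant GSTP1 had ratios of 1.09, 1.06 and 1.17.

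Proteasome subunits, 31 measured, had medians of 0.06, 0.25 and 0.13, with 26 of 31, 31 of 31 and 28 of 31 above 1, and depth-weighted medians of 0.04, 0.16 and 0.10. At 25%, 0, 6 and 4 of the 31 were higher and 0 lower in each culture. The shares over all measured genes were 3.28%, 3.5% and 9.66% higher and 5.29%, 6.09% and 15.8% lower. PSMC4 and PSMD6, regulatory particle subunits, had ratios of 1.14, 1.36 and 1.28 and 1.16, 1.24 and 1.36. MHC class I presentation genes had medians of 0.14, 0.11 and 0.25, with 10 of 12, 8 of 12 and 8 of 11 above 1. Of these, 1, 2 and 4 were higher at 25% and 0, 0 and 1 of the measured members lower. HLA-C, whose count is uncertain because class I genes resemble each other, had 154, 65.2 and 58.2 CPM in ALDH1A1-high cells, against 125, 58.9 and 38.0 CPM in ALDH1A1-zero cells, with depth-weighted ratios of 1.31, 1.33 and 1.59. The endoplasmic reticulum chaperones HSPA5 and HSP90B1 had ratios of 1.15, 1.24 and 1.34 and 1.12, 1.19 and 1.72, each above 1 in every culture, although the unfolded protein and amino acid stress list as a whole had medians of -0.08, -0.19 and 0.10. The stress factors DDIT3 and CEBPG of that list had ratios of 0.479, 0.398 and 1.32 and 0.861, 0.641 and 0.685. DDIT3 was lower in ALDH1A1-high cells of H460 and mdR-H460, by less after depth weighting (0.666 and 0.698). Without cells holding 10 or more DDIT3 UMIs its H460 log2 ratio was 0.06. Those cells were removed by their DDIT3 level, so this change is largely set by the removal. Lists of drug efflux, stem cell surface, and nuclear oxidative phosphorylation genes had medians of -0.21, 0.01 and 0.14, of 0.03, -0.16 and -0.05 and of -0.01, 0.03 and 0.00. A list of 17 neural genes, of which only 9, 4 and 5 were measured, had medians of 0.20, 0.25 and 0.43. Its depth-weighted medians were 0.27, 0.38 and 0.41, so glycolysis and hypoxia was not the only list above 0 in each culture.

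**Figure D5:**
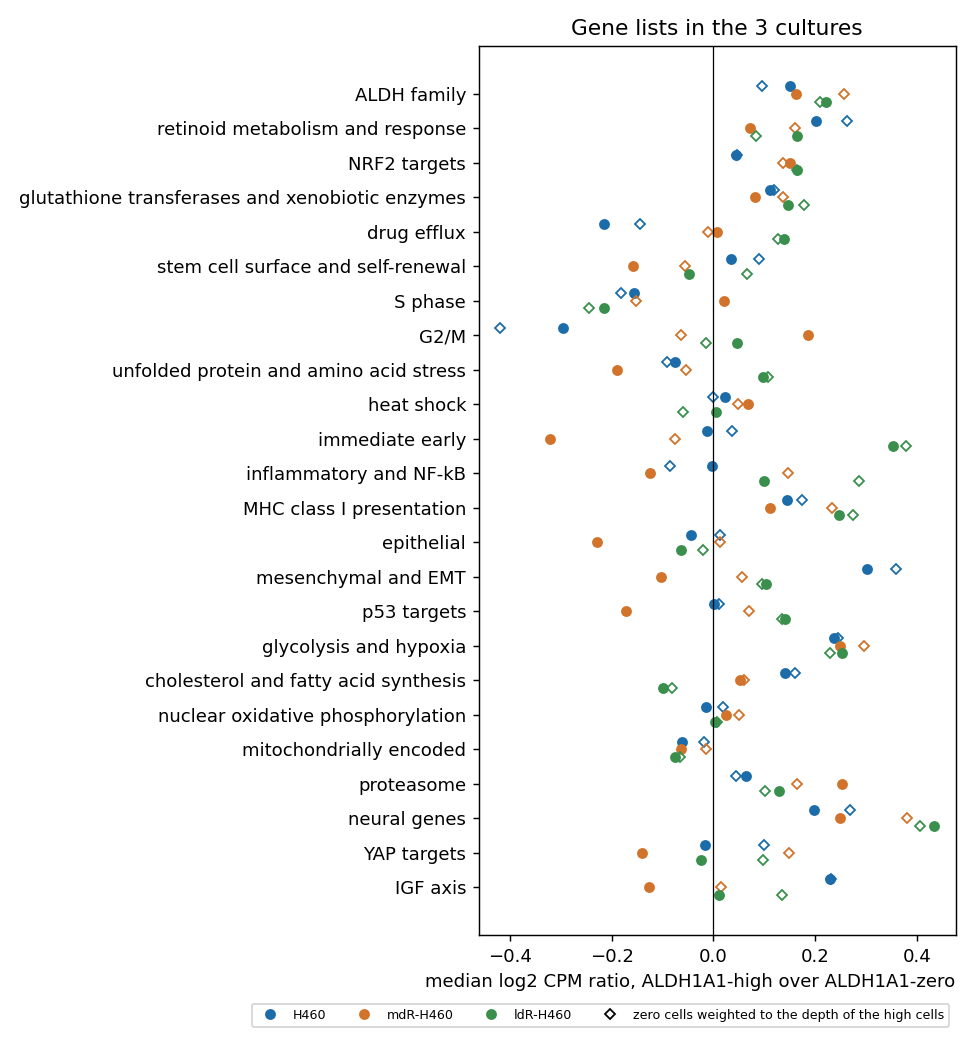
Median log2 CPM ratio, ALDH1A1-high over ALDH1A1-zero, of the measured members of each gene list with at least 4 measured members in every culture; filled points are plain and open diamonds depth-weighted medians. Glycolysis and hypoxia medians were 0.24, 0.25 and 0.25 from H460 to ldR-H460, while G2/M medians were -0.29, 0.19 and 0.05.

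The plain medians of the G2/M list were -0.29, 0.19 and 0.05, with 1 of 43, 42 of 48 and 29 of 47 above 1, and its depth-weighted medians -0.42, -0.06 and -0.01. The sign of the plain median thus differed between cultures. Depth-weighted medians over all measured genes were -0.01, -0.02 and -0.06. The depth-weighted G2/M median was thus clearly below that of all genes in H460 only, and above it in ldR-H460. Cells called G2/M after thinning made up 21.97% (17.7 to 26.7) of ALDH1A1-high and 31.9% (29.9 to 33.9) of ALDH1A1-zero cells in H460, 40.4% (37.1 to 43.9) and 29.1% (26.9 to 31.4) in mdR-H460, and 37.4% (29.6 to 45.8) and 35.4% (33.9 to 37.0) in ldR-H460. ALDH1A1-high cells were thus less often called G2/M in H460 and more often in mdR-H460, while the ldR-H460 intervals overlapped, and the intervals cover sampling of cells only. With phases called on unthinned cells, the H460 shares were 17.9% (14.0 to 22.4) and 23.7% (21.9 to 25.6), with overlapping intervals. The mdR-H460 shares were then 37.9% (34.5 to 41.3) and 26.6% (24.4 to 28.8). Phase shares were not weighted by depth, and thinning does not change which cells entered a class. The part of depth in these shares was not tested. Cells called S made up 29.5% (24.7 to 34.6) of ALDH1A1-high and 28.5% (26.5 to 30.4) of ALDH1A1-zero cells in H460, 26.0% (23.0 to 29.1) and 29.6% (27.4 to 32.0) in mdR-H460, and 25.9% (19.0 to 33.7) and 39.0% (37.4 to 40.7) in ldR-H460. For S, the intervals were apart in ldR-H460 and overlapped in H460 and mdR-H460. The S phase list had medians of -0.16, 0.02 and -0.21. Its depth-weighted medians of -0.18, -0.15 and -0.24 were below those of all measured genes in each culture. Its members HELLS, a chromatin remodeller, ATAD2, a bromodomain protein, and USP1, a deubiquitinase of DNA repair, had ratios of 0.850, 0.799 and 0.691, of 0.732, 0.815 and 0.755 and of 0.859, 0.869 and 0.828. The part of cycle phase in the ratios of other genes was examined only through cells called G1, among which the depth-weighted glycolysis and hypoxia medians were 0.24, 0.29 and 0.23.

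Many of the larger differences belonged to 1 culture. In H460 the secretoglobin SCGB3A2 had 15.7 CPM in ALDH1A1-high and 3.94 CPM in ALDH1A1-zero cells, a ratio of 3.999 (3.07 to 5.20), and ratios of 0.815 and 0.722 in mdR-H460 and ldR-H460. MMP1, the interstitial collagenase, had 35.6 CPM in ALDH1A1-high and 10.5 CPM in ALDH1A1-zero cells there, a ratio of 3.39 (2.86 to 3.9995), and no UMI in either class of the derivatives. NTS, which encodes neurotensin, and NNMT, nicotinamide N-methyltransferase, had H460 ratios of 3.30 (2.73 to 3.98) and 2.30 (1.70 to 3.08). These H460 differences came from 68 to 242 UMIs in the ALDH1A1-high cells. The heat shock gene HSPA6 had 66.8 CPM in ALDH1A1-high and 20.6 CPM in ALDH1A1-zero cells in H460, a ratio of 3.24 (2.87 to 3.65), but a log2 ratio of -2.29 without cells holding 10 or more DDIT3 UMIs. VIM, the mesenchymal intermediate filament vimentin, had 1091, 545 and 774 CPM in ALDH1A1-high cells, against 848, 541 and 721 CPM in ALDH1A1-zero cells, with ratios of 1.29 (1.254 to 1.32), 1.01 (0.981 to 1.04) and 1.07 (1.02 to 1.13). CTGF, a matricellular YAP target, had ratios of 1.49 (1.41 to 1.58), 1.12 (1.03 to 1.23) and 1.18 (1.04 to 1.33), but depth-weighted ratios of 1.74, 1.38 and 1.30, and was among the 30 genes higher at 25% in all cultures after that weighting.

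In mdR-H460 the cytokine gene IL1B had 14.8 CPM in ALDH1A1-high and 4.52 CPM in ALDH1A1-zero cells, a ratio of 3.28 (2.60 to 4.16), and a ratio of 1.76 (1.49 to 2.07) in H460. GJA5, a connexin, and NOX5, a superoxide-producing oxidase, had mdR-H460 ratios of 1.83 (1.53 to 2.20) and 1.76 (1.47 to 2.11) and ldR-H460 ratios of 1.88 (1.53 to 2.29) and 1.99 (1.41 to 2.75), so both derivatives shared this direction. H460 ratios of the same genes were 0.920 and 0.855. Lower in mdR-H460 were TXNIP, which binds thioredoxin, at 4.97 CPM in ALDH1A1-high and 16.8 CPM in ALDH1A1-zero cells, SNAPC1, a small nuclear RNA transcription factor, at 71.5 CPM in ALDH1A1-high and 164 CPM in ALDH1A1-zero cells, and TIPARP, a target of the aryl hydrocarbon receptor, at 11.7 CPM in ALDH1A1-high and 25.4 CPM in ALDH1A1-zero cells. Their ratios of 0.296, 0.437 and 0.460 became 0.481, 0.712 and 0.676 with depth weighting. Depth weighting also lowered the number of genes at least 1.5-fold lower in mdR-H460 to 23, against 80 without it.

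In ldR-H460 NDUFA4L2, a HIF1 target of the respiratory chain, had 41.9 CPM in ALDH1A1-high and 7.39 CPM in ALDH1A1-zero cells, a ratio of 5.68 (4.45 to 7.18), against ratios of 0.831 and 1.27 in H460 and mdR-H460. CP, the ferroxidase ceruloplasmin, had 20.03 CPM in ALDH1A1-high and 5.51 CPM in ALDH1A1-zero cells, a ratio of 3.64 (2.57 to 5.04), and PDK4, a brake on pyruvate entry into mitochondria, had 27.5 CPM in ALDH1A1-high and 9.61 CPM in ALDH1A1-zero cells, a ratio of 2.86 (2.14 to 3.76). ANG, the ribonuclease angiogenin, had 29.4 CPM in ALDH1A1-high and 13.3 CPM in ALDH1A1-zero cells, a ratio of 2.20 (1.67 to 2.85), and ratios of 1.12 and 1.17 in H460 and mdR-H460. VWA5A was higher in each culture by different amounts, with ratios of 1.49 (1.09 to 2.02), 1.27 (1.06 to 1.52) and 2.54 (2.01 to 3.18). FANCG, of the Fanconi DNA repair complex, and RAI14 were lower, at ratios of 0.340 (0.155 to 0.650) and 0.428 (0.226 to 0.736), from 9 and 13 UMIs in ALDH1A1-high cells. None of these leading ldR-H460 genes had more than 90 UMIs in the 147 ALDH1A1-high cells, and whether the cultures differ in these ratios was not tested.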

How the data were processed

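Single cells of 3 cultures were profiled with Chromium 3' v2 chemistry on an Illumina instrument, per the labels' protocols. The authors deposited UMI counts per gene symbol and cell, not normalized, for cells that passed their quality filter. The submitters' processing notes name Cell Ranger 3.0.2, Seurat 3.0 and GRCh38, and no source used here gives the gene annotation. Gene coordinates came from GENCODE v29 on GRCh38, matched by symbol.

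From these counts, UMIs were summed over ALDH1A1-high and over ALDH1A1-zero cells of each library and divided by the class total to give CPM. Ratios have exact binomial-based 95% intervals, and shares have exact Clopper-Pearson intervals. Intervals cover counting error only. Where a class had 0 UMIs, 3 UMIs stood in for it. Genes were counted as apart at 1.5-fold, or at 25%, among those with 10 CPM and 30 UMIs in the higher class, with ALDH1A1 left out. A gene that reached 10 CPM in only 1 class was higher in that class by this filter. For depth weighting, ALDH1A1-zero cells were weighted over 10 bins of UMIs per cell. Cell cycle phases were called with scanpy 1.11.5 on cells thinned to 5000 UMIs with a fixed seed. TMM factors (edgeR 4.0.16) and size factors (DESeq2 1.42.0) over the class sums were alternatives, and no test was run with either tool. The code ran on Python 3.11.15 with numpy 2.4.6, scipy 1.17.1 and pandas 2.3.3, and was tested on simulated counts. No doublet caller was run, and the part of doublets was not tested.

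The members and gene lists were chosen with earlier results of these data known. Genes described are the recurring ones, up to 4 members of each list with the largest smallest difference of 1 sign plus its most abundant member, the leading genes of each culture, and genes higher in 1 culture and lower in another. No gene recurred at 1.5-fold, so the recurring genes were taken at 25% after the values were seen, and some members of the lists, GBE1, WSB1 and STC1 were also chosen after their values were seen.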

Additional observations from a re-analysis of the deposited data

Results flagged for a closer look

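Some genes were at least 1.5-fold higher in ALDH1A1-high cells of 1 culture and at least 1.5-fold lower in those of another. The difference between the cultures was not tested for any of them. FGG, the fibrinogen gamma chain, had a log2 ratio of -2.70 in H460, with 6.18 CPM in ALDH1A1-high and 40.2 CPM in ALDH1A1-zero cells, and of 0.67 in ldR-H460, with 17.7 CPM in ALDH1A1-high and 11.1 CPM in ALDH1A1-zero cells. S100A8, a calprotectin subunit, had log2 ratios of -1.16 in H460, with 64.6 CPM in ALDH1A1-high and 144 CPM in ALDH1A1-zero cells, and 0.81 in mdR-H460, with 106 CPM in ALDH1A1-high and 60.4 CPM in ALDH1A1-zero cells. SLPI, a secreted protease inhibitor, had log2 ratios of -1.02 in H460, with 115 CPM in ALDH1A1-high and 234 CPM in ALDH1A1-zero cells, and 1.08 in ldR-H460, with 50.3 CPM in ALDH1A1-high and 23.8 CPM in ALDH1A1-zero cells. C3orf49 had log2 ratios of -1.09 in mdR-H460, with 9.23 CPM in ALDH1A1-high and 19.7 CPM in ALDH1A1-zero cells, and 0.80 in ldR-H460, with 17.2 CPM in ALDH1A1-high and 9.91 CPM in ALDH1A1-zero cells; its depth-weighted ratio in mdR-H460 was 0.957. DDIT4, a stress-induced inhibitor of mTOR signalling, had log2 ratios of -0.77 in mdR-H460 and 0.67 in ldR-H460.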

How the results depend on the processing

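Alternatives changed 1 choice at a time, or the 2 named together. The number of genes 1.5-fold apart moved with most of them, and the glycolysis and hypoxia medians stayed above 0 under all that were run. Only values that moved are given, and the cause was not tested. Genes measured in all 3 cultures numbered 5232 in the main setting and 10283 with no CPM filter and 10 UMIs. They numbered 1748 with 10 or more ALDH1A1 UMIs asked, 1996 with classes cut after thinning and 2699 with 30 CPM asked. With 5 or more ALDH1A1 UMIs asked they numbered 4194, with cells thinned to 5000 UMIs 4015, and in cells called G1 4109. Counts under these settings come from different sets of genes and are not directly comparable. No paired analysis was possible because each culture was 1 library. Leaving out 1 culture left 2 to 6 recurring higher genes and 0 to 6 lower at 1.5-fold. At 25%, genes higher numbered 211 in H460, 205 in mdR-H460, 550 in ldR-H460 and 12 in all 3 cultures, while genes lower numbered 340 in H460, 357 in mdR-H460, 900 in ldR-H460 and 10 in all 3 cultures. At 25% with depth-weighted cells, genes higher numbered 345 in H460, 302 in mdR-H460, 590 in ldR-H460 and 30 in all 3 cultures, while genes lower numbered 385 in H460, 259 in mdR-H460, 984 in ldR-H460 and 17 in all 3 cultures. At 2-fold, genes higher numbered 9 in H460, 3 in mdR-H460 and 21 in ldR-H460, while genes lower numbered 7 in H460, 25 in mdR-H460 and 15 in ldR-H460. With 30 CPM asked of the higher class, genes higher numbered 7 in H460, 7 in mdR-H460 and 50 in ldR-H460, while genes lower numbered 8 in H460, 24 in mdR-H460 and 27 in ldR-H460. With DESeq2 size factors, the median of glycolysis and hypoxia genes was 0.31 in mdR-H460. With TMM factors, the median of glycolysis and hypoxia genes was 0.31 in mdR-H460. With cells of any depth, the ALDH1A1-high share was 7.72% in H460 and 16.1% in mdR-H460, while the ALDH1A1-zero share was 60.1% in H460, 51.2% in mdR-H460 and 80.1% in ldR-H460. With 10 or more ALDH1A1 UMIs asked, genes higher numbered 58 in H460, 260 in mdR-H460, 69 in ldR-H460 and 6 in all 3 cultures, while genes lower numbered 1435 in H460, 410 in mdR-H460, 1089 in ldR-H460 and 17 in all 3 cultures. The median of glycolysis and hypoxia genes was 0.38 in mdR-H460, while the ALDH1A1-high share was 0.182% in H460, 1.49% in mdR-H460 and 0.0885% in ldR-H460. ALDH1A1-high cells called S were 42.9% in H460, while ALDH1A1-high cells called G2/M were 14.3% in H460, 48.3% in mdR-H460 and 25% in ldR-H460. Log2 ratios of the other sign were the median of lung lineage genes -0.71 in H460, ANKRD40 1.52 in ldR-H460, BNIP3L -0.30 in ldR-H460, FANCG 0.060 in ldR-H460, HSPA6 -1.84 in H460, MMP1 -0.87 in H460, PLIN2 -0.029 in ldR-H460 and S100A8 -0.11 in mdR-H460. With 5 or more ALDH1A1 UMIs asked, genes higher numbered 111 in H460, 65 in mdR-H460 and 4 in all 3 cultures, while genes lower numbered 269 in H460, 127 in mdR-H460, 914 in ldR-H460 and 2 in all 3 cultures. The median of glycolysis and hypoxia genes was 0.34 in mdR-H460, while the ALDH1A1-high share was 2.44% in H460, 8.51% in mdR-H460 and 0.973% in ldR-H460. In cells called G1, genes higher numbered 81 in H460 and 96 in mdR-H460, while genes lower numbered 151 in H460, 552 in mdR-H460, 927 in ldR-H460 and 4 in all 3 cultures. Log2 ratios of the other sign were the median of fibrinogen and secreted liver-type genes -0.025 in ldR-H460. In cells of 5000 to 20000 UMIs, genes higher numbered 135 in H460, 51 in mdR-H460 and 2 in all 3 cultures, while genes lower numbered 169 in H460 and 163 in mdR-H460. The ALDH1A1-high share was 7.16% in H460 and 15.09% in mdR-H460, while the ALDH1A1-zero share was 59.3% in H460 and 46.4% in mdR-H460. In cells of 10000 UMIs or more, genes higher numbered 29 in mdR-H460 and 2 in all 3 cultures, while genes lower numbered 35 in mdR-H460. The ALDH1A1-high share was 10.2% in H460 and 25.7% in mdR-H460, while the ALDH1A1-zero share was 51.6% in H460, 35.0% in mdR-H460 and 76.9% in ldR-H460. With cells thinned to 5000 UMIs, genes higher numbered 73 in H460, 76 in mdR-H460, 58 in ldR-H460 and 1 in all 3 cultures, while genes lower numbered 275 in H460, 255 in mdR-H460, 593 in ldR-H460 and 2 in all 3 cultures. The median of glycolysis and hypoxia genes was 0.16 in mdR-H460, while log2 ratios of the other sign were the median of fibrinogen and secreted liver-type genes -0.073 in ldR-H460, ANKRD40 0.18 in ldR-H460 and FGG -0.073 in ldR-H460. With classes cut after thinning, genes higher numbered 71 in H460, 77 in mdR-H460, 23 in ldR-H460 and 1 in all 3 cultures, while genes lower numbered 1191 in H460, 720 in mdR-H460, 1379 in ldR-H460 and 72 in all 3 cultures. The median of glycolysis and hypoxia genes was 0.40 in H460, 0.38 in mdR-H460 and 0.37 in ldR-H460, while the ALDH1A1-high share was 1.27% in H460, 3.56% in mdR-H460 and 0.686% in ldR-H460. The ALDH1A1-zero share was 79.1% in H460, 67.4% in mdR-H460 and 88.8% in ldR-H460, while log2 ratios of the other sign were the median of squamous and calprotectin genes -0.64 in ldR-H460, the median of fibrinogen and secreted liver-type genes -0.999 in ldR-H460, ANKRD40 1.70 in ldR-H460, C3orf49 0.14 in mdR-H460, DDIT3 0.92 in H460, FGG -1.04 in ldR-H460, IL1B -0.48 in H460, INSIG2 -0.49 in ldR-H460, S100A8 -0.24 in mdR-H460 and SNAPC1 0.39 in mdR-H460. With equal weight per cell, genes lower numbered 66 in H460 and 161 in mdR-H460. With no CPM filter and 10 UMIs, genes higher numbered 350 in H460, 326 in mdR-H460, 439 in ldR-H460 and 2 in all 3 cultures, while genes lower numbered 1072 in H460, 1105 in mdR-H460, 1441 in ldR-H460 and 26 in all 3 cultures. With phases called on unthinned cells, ALDH1A1-high cells called S were 36.7% in H460, while ALDH1A1-zero cells called S were 41.2% in H460, 33.4% in mdR-H460 and 40.7% in ldR-H460. ALDH1A1-zero cells called G2/M were 23.7% in H460, 26.6% in mdR-H460 and 40.2% in ldR-H460. With totals free of mitochondrial, ribosomal and ALDH1A1 UMIs, genes higher numbered 62 in H460, while genes lower numbered 90 in H460, 149 in mdR-H460, 412 in ldR-H460 and 2 in all 3 cultures. In depth-weighted cells called G1, genes higher numbered 127 in H460, 165 in mdR-H460 and 1 in all 3 cultures, while genes lower numbered 144 in H460, 512 in mdR-H460, 991 in ldR-H460 and 15 in all 3 cultures. The median of glycolysis and hypoxia genes was 0.29 in mdR-H460. In depth-weighted cells without those holding 3 or more UMIs of S100A8 or HSPA6, genes higher numbered 68 in H460, 39 in mdR-H460 and 2 in all 3 cultures, while genes lower numbered 33 in mdR-H460. Log2 ratios of the other sign were S100A8 0.17 in H460 and S100A8 -0.29 in mdR-H460. Without cells holding 10 or more DDIT3 UMIs, genes lower numbered 24 in mdR-H460, while log2 ratios of the other sign were DDIT3 0.057 in H460 and HSPA6 -2.29 in H460. Without cells holding 3 or more UMIs of S100A8 or HSPA6, log2 ratios of the other sign were S100A8 0.12 in H460 and S100A8 -0.42 in mdR-H460. Where cells were removed by DDIT3 or S100A8, the change in the ratio of that same gene is largely set by the removal. With depth-weighted ALDH1A1-zero cells, genes higher numbered 68 in H460, 44 in mdR-H460 and 3 in all 3 cultures, while genes lower numbered 23 in mdR-H460. The median of glycolysis and hypoxia genes was 0.29 in mdR-H460. Asking 10 CPM in either class is the same filter as the one used. Precision is limited by the 147 ALDH1A1-high cells of ldR-H460, and by the 4 to 58 cells with 10 or more ALDH1A1 UMIs.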

Other observations

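With depth weighting, further genes were at least 25% higher or lower in ALDH1A1-high cells of all 3 cultures, each on 1 library. Their depth-weighted ratios have no interval. INSIG2, which retains the sterol sensor in the endoplasmic reticulum, had depth-weighted ratios of 1.37, 1.59 and 1.91. PUS1, a pseudouridine synthase, and TCOF1, a nucleolar protein of ribosome synthesis, were lower, with depth-weighted ratios of 0.776, 0.788 and 0.728 and 0.728, 0.785 and 0.750.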
